A study of Mus musculus with 15 samples.

Results

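The expression of 35 genes for peroxisome biogenesis and peroxisomal lipid enzymes was examined in white adipocytes cultured at 31°C. The genes were taken by name from the count table, which has 18804 gene rows, and all 35 were found there (Pex2 under the older symbol Pxmp3). They comprise 12 peroxins, which build the organelle, 6 transporters and other membrane proteins, and 17 enzymes. Of the 35, 34 passed the filter on low counts and were tested among 14293 genes. Slc27a2, a very-long-chain acyl-CoA synthetase, was not tested, since its libraries held between 0 and 6 counts.

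Peroxisomes are single-membrane organelles that oxidise fatty acids which mitochondria handle poorly, such as very-long-chain and branched-chain acids, and that make the first intermediates of ether lipids. Oxidases of the peroxisomal β-oxidation spiral pass electrons straight to oxygen and form hydrogen peroxide, which catalase breaks down, so this oxidation is not coupled to ATP synthesis. Peroxins insert membrane proteins and import folded matrix enzymes that carry a targeting signal, and many of the genes are known targets of the PPAR nuclear receptors.

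All cells were mesenchymal stem cells from the ears of C57BL/6J mice, differentiated with methylisobutylxanthine, dexamethasone, insulin and, per the labels, troglitazone, a PPARγ agonist, and harvested on day 16 of differentiation. One passage of the study's methods names rosiglitazone, another PPARγ agonist, for such cells. Cells of the 0-day group stayed at 37°C, cells of the 1-day group were moved to 31°C on day 15, and cells of the 12-day group were moved on day 4, so the 12-day cells also completed maturation at 31°C. Duration at 31°C and the stage of the cells when they were moved cannot be told apart. Each group had 5 libraries, and the labels do not say whether they came from separate mice or cultures, so the p-values measure the spread between these libraries, which may be technical. RNA was measured in whole cultures, in which fewer cells of a type and less RNA per cell cannot be told apart.

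Total counts ranged from 92387376 to 133270973 in the 0-day group, from 74430465 to 105322757 in the 1-day group and from 64648178 to 91338649 in the 12-day group. Levels are given as CPM, counts scaled to the library size. A count of 3 corresponded to between 0.0238 and 0.0428 CPM, a floor that covers counting error only. The 35 genes together reached 2407 ± 36.9 CPM at day 0, 2522 ± 29.9 CPM at day 1 and 2344 ± 50.8 CPM at day 12 (SD, n = 5). All 10 adipocyte markers were expressed, with summed levels of 4010 to 4270 CPM at day 0, 4710 to 5000 CPM at day 1 and 3650 to 3980 CPM at day 12. At day 12, 3 of the 10 were called higher and 4 lower, with a median log2 fold change of 0.082. For example, Fabp4, a fatty acid carrier, averaged 828 CPM at day 0 and 1620 CPM at day 12, and Adipoq (adiponectin) averaged 1090 and 464 CPM. Markers of adipocyte progenitors and fibroblasts summed to 7190 to 7770, 6710 to 6870 and 6040 to 6290 CPM. Dcn made the largest part of this sum (means of 5980, 5320 and 5040 CPM), while Pdgfra went the other way (562, 661 and 712 CPM). All 5 markers of dividing cells were higher at day 12, when their sum was 146 to 175 CPM against 48.8 to 59.6 CPM at day 0. The chondrocyte markers, led by Comp, summed to 3670 to 4400 CPM at day 0, 3900 to 4060 CPM at day 1 and 1130 to 1220 CPM at day 12. Among them Col2a1 did not fall, with means of 149, 155 and 182 CPM. Mesothelial markers summed to at most 2.25 CPM at day 0 and day 1 and to 23.4 to 38.3 CPM at day 12, nearly all of it Msln, while Upk3b and Wt1 stayed at or near 0. Macrophage and leukocyte markers summed to 26.5 to 33.7, 42.4 to 48.4 and 30 to 34.3 CPM. Most of this was Cd14 and Cd68, which averaged 20.7 and 7.5 CPM at day 0, while Ptprc had at most 7 counts in any library. Endothelial, keratinocyte and skeletal muscle markers summed to at most 1.72 CPM in any library, and none of the 4 brown adipocyte markers passed the filter. The part of these markers in the peroxisomal values was not tested.

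Promoter sequences from RefSeq, spanning 250 bases before to 50 bases after the gene start on build GRCm38.p6, were matched for 28 of the 35 genes. Those of Pex2, Pex19, Abcd2, Abcd4, Pxmp2, Hsd17b4 and Amacr are named only. A script searched both strands for CCAAT, a common promoter element, and for the PPAR response element of the direct repeat type (DR1: 2 copies of AGGTCA with 1 base between them, at most 2 mismatches), and no match of either kind overlapped the other in the sequences shown. The 28 genes had 33 promoters. CCAAT was present in 13 of these 33 (39.4%, in 12 genes) and in 37.4% of the 32851 promoters of all genes. DR1 was present in 2 of the 33 (6.06%) and in 3.86% of all promoters. Both genes with a DR1 match, Cat and Acox2, are shown, together with Pex16 and Dhrs4, which rose, and Pex6, which fell most among the genes with a matched promoter. Matches are in capitals, and the strand is that of the gene.
Cat (chr2:103485104-103485403, minus strand): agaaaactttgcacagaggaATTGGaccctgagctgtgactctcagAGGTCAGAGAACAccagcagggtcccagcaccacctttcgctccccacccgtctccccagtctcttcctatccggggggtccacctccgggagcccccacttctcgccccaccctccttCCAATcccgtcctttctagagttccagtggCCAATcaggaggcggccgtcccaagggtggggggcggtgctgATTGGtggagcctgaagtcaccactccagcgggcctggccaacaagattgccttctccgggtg
Acox2 (chr14:8258790-8259089, minus strand): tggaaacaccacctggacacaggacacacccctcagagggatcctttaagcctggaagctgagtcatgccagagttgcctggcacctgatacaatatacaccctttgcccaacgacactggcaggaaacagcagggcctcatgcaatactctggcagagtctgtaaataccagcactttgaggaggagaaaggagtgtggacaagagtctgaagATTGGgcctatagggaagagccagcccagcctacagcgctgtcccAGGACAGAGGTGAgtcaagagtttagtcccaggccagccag
Dhrs4 (chr14:55478508-55478807, plus strand): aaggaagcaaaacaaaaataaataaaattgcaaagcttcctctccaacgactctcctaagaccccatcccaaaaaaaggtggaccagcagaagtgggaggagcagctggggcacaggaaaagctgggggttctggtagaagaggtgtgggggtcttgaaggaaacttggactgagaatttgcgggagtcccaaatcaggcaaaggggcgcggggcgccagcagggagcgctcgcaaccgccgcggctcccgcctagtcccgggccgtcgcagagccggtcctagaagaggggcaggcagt
Pex16, upstream start (chr2:92374426-92374725, plus strand): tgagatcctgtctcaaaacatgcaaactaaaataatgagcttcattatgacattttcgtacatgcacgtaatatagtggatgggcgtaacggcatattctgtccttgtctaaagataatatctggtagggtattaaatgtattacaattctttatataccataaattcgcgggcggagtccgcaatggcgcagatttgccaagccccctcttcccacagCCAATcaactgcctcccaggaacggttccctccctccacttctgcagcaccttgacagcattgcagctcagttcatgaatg
Pex16, downstream start (chr2:92374989-92375288, plus strand): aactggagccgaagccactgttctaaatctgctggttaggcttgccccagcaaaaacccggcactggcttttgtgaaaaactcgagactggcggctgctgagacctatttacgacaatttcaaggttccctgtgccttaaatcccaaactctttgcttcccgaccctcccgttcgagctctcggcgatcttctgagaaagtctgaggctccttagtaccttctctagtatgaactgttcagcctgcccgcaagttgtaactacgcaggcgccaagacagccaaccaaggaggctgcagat
Pex6 (chr17:46711226-46711525, plus strand): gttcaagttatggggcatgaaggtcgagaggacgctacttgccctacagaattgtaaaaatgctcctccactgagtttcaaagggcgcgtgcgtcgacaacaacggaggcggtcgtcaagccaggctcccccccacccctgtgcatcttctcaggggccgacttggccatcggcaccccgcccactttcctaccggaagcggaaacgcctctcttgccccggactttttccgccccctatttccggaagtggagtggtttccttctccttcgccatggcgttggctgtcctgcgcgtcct
The Cat promoter carried the DR1 match at position -204 from the gene start and CCAAT at 4 positions. The Acox2 match lay at position 9, after the start, with 1 CCAAT on the opposite strand. The upstream start of Pex16 had a single CCAAT at position -31, and its downstream start, Dhrs4 and Pex6 had no match, which says only that these letters are not in this window.

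To ask how cool temperature affected the peroxisomal genes, each group was compared with the others in 1 fit over all tested genes. A gene was called when its Benjamini-Hochberg adjusted p was under 0.05 and its fold change over 1.5, the limits the study used. After 1 day at 31°C, 3 of the 34 genes rose (Pex3, Pex16 and Ehhadh) and 3 fell (Pex6, Abcd2 and Acaa1b). Of all tested genes, 7.69% were called higher and 13.4% lower in that comparison, against 8.82% in either direction for the peroxisomal genes. After 12 days, 3 rose (Pex16, Acox2 and Dhrs4) and 3 fell (Pex6, Abcd2 and Pxmp2), with 12.9% of all genes called higher and 16.2% lower. The calls were thus near or below the background of all genes in both directions. Sample numbers in the labels form a pair of series of unstated meaning, and in the 11 libraries of the larger series 3 genes were higher and 3 lower at each time. The smaller series of 4 libraries was not fitted alone.

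Small differences were frequent, here as in the whole table. An adjusted p under 0.05 without a fold limit was reached by 28 of 34 genes (82.4%) at day 1 and by 71.3% of all genes. At day 12 it was reached by 30 of 34 (88.2%) and by 76.4% of all genes. The median log2 fold change of the 34 genes was 0.068 at day 1, when that of all genes was -0.009, and -0.052 at day 12, when that of all genes was 0.012. The median size of the log2 change was 0.26 at day 1 and 0.259 at day 12, and over all genes it was 0.296 and 0.352. Scaling moved these values. With libraries scaled to total counts, the median of all genes at day 12 was 0.205, that of the peroxisomal genes 0.141, and the share of calls that were lower dropped from 55.7% to 35.9%, with 6 peroxisomal genes higher and 3 lower. Of all 14293 tested genes, 2975 were then called higher and 1668 lower, in place of 1847 and 2318. With libraries scaled to Hprt, Tbp and Ppia, the median of all genes at day 1 was -0.107, that of the peroxisomal genes -0.03, and the share of lower calls went from 63.5% to 75.8%, with 1 gene higher and 4 lower. Over all tested genes, 773 were then higher and 2422 lower at day 1, in place of 1099 and 1916.

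**Figure D1:**
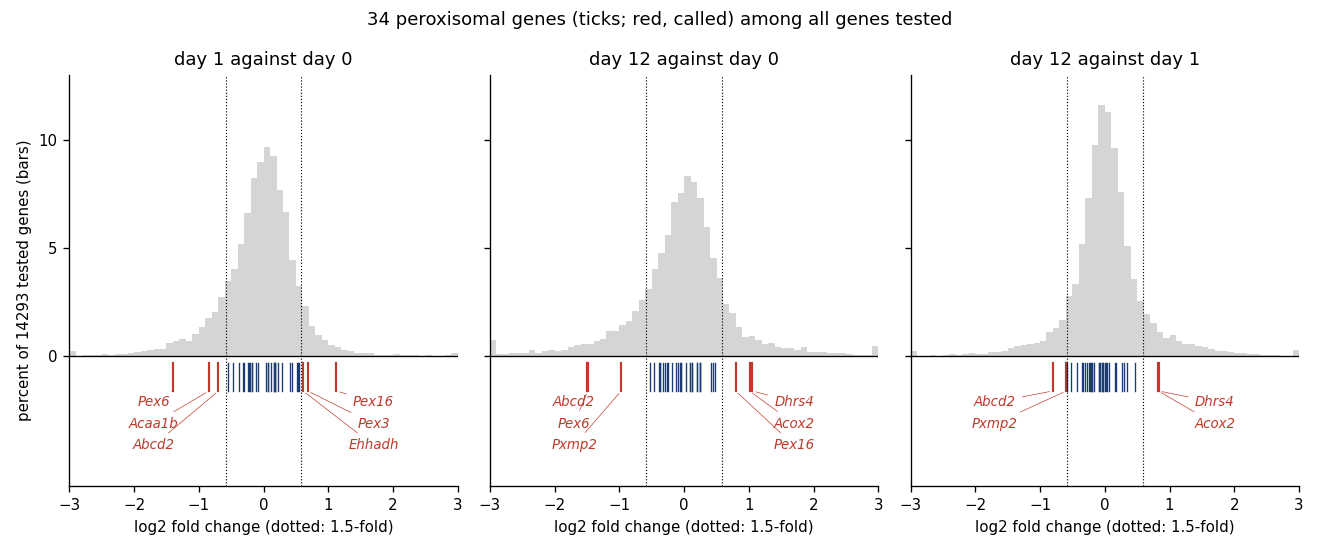
Log2 fold changes (horizontal axis) of all 14293 tested genes as bars (percent of genes per bin of 0.1, vertical axis, end bars holding the genes beyond the axis) and of the 34 peroxisomal genes as ticks below them, in the 3 comparisons. Red ticks with names are the called genes, which lie outside the dotted 1.5-fold lines, and most ticks lie between the lines.

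**Figure D2:**
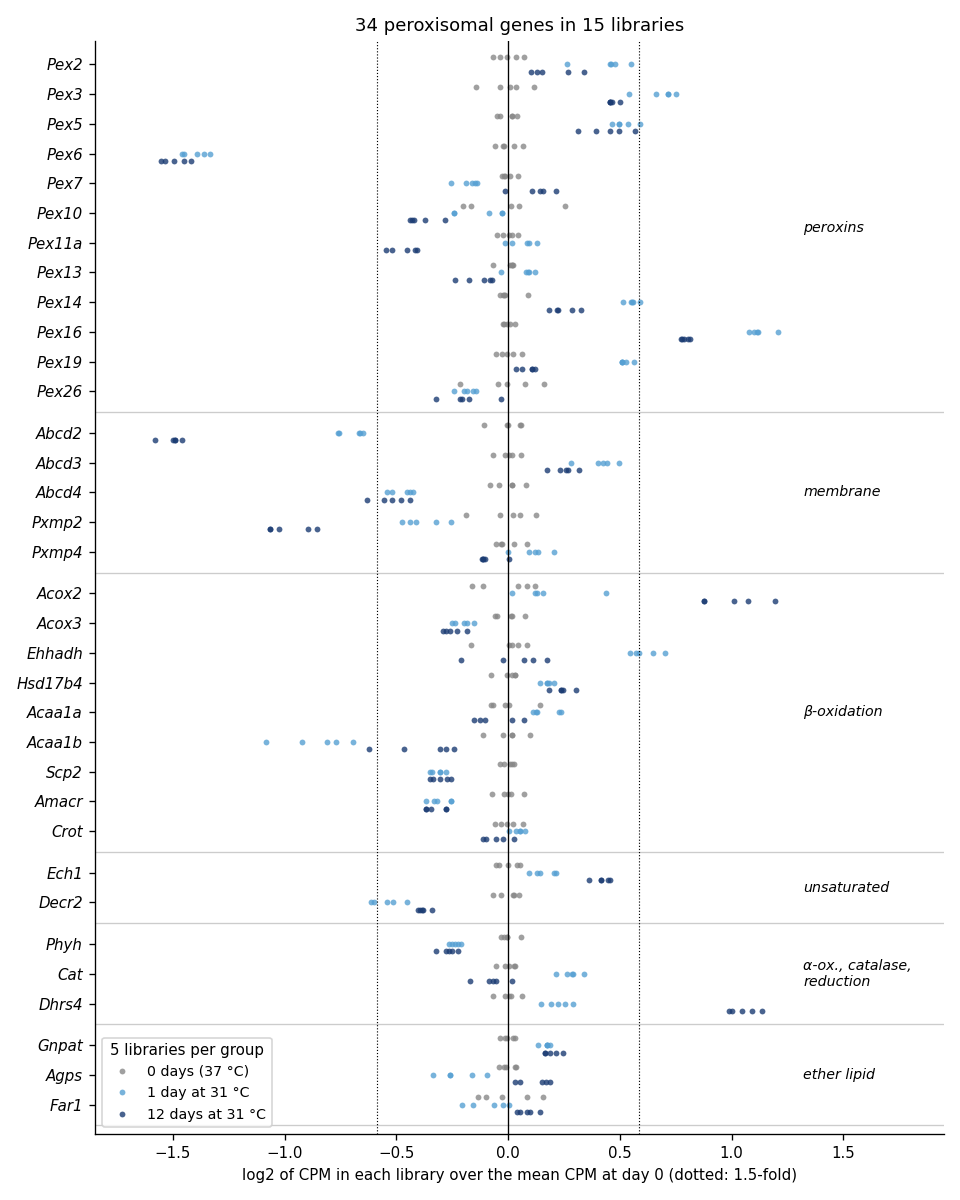
Each point is 1 library: the log2 ratio of its CPM to the mean CPM at day 0 (horizontal axis) for 34 genes grouped by role, with 5 libraries at day 0 (grey), day 1 (light blue) and day 12 (dark blue). The 5 libraries of a group sit close together, with Pex6 and Abcd2 far to the left and Pex16, Dhrs4 and Acox2 to the right.

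Of the 3 peroxins that insert membrane proteins, Pex16 and Pex3 rose after 1 day, and Pex19 stayed under the fold limit. Pex19 is the cytosolic receptor of new peroxisomal membrane proteins, Pex3 is its docking site, and Pex16 brings Pex3 to the membrane. Pex16 (chr2:92374676-92381217, plus strand) measured 20.8, 21.6, 20.9, 21.1 and 21.3 CPM at day 0, 45.3, 44.6, 45.8, 48.8 and 45.9 CPM at day 1, and 37.2, 37.0, 36.3, 36.5 and 36.1 CPM at day 12. The 3 groups did not overlap, with day 1 highest and day 12 between. Pex16 rose 2.18-fold at day 1 (log2 1.13, SE 0.033, adjusted p = 2.11e-22) and stood 1.73-fold above day 0 at day 12 (log2 0.79, SE 0.033, adjusted p = 3.9e-19). Its exons share 127 bases (7.15%) with Large2 on the opposite strand, which averaged 0.137 CPM at day 0 and 0.0256 CPM at day 1.

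Pex3 (chr10:13523842-13553142, minus strand) measured 25.0, 26.3, 23.2, 27.8 and 25.8 CPM at day 0, 37.3, 40.5, 43.2, 42.1 and 42.1 CPM at day 1, and 35.2, 35.2, 35.2, 35.4 and 36.3 CPM at day 12. Its groups did not overlap either and followed the same order. It rose 1.6-fold at day 1 (log2 0.68, SE 0.043, adjusted p = 1.08e-14), and at day 12 the difference from day 0 was under the fold limit (log2 0.47, SE 0.043, adjusted p = 3.48e-11). Scaled to the 3 reference genes, the day 1 value was 0.58 and no longer called. Adat2, which overlaps 5.25% of its exon bases on the opposite strand, averaged 3.71, 5.08 and 5.14 CPM. Pex19 was at 112 ± 3.56, 162 ± 2.65 and 120 ± 2.97 CPM (SD, n = 5), a difference under the fold limit at day 1 (log2 0.53, SE 0.027, adjusted p = 8.21e-17) that was 0.09 at day 12 (adjusted p = 0.00342).

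None of the peroxins that receive and dock matrix enzymes (Pex5, Pex7, Pex13 and Pex14) passed the fold limit at either time by edgeR. Pex5, the receptor of the common C-terminal targeting signal, measured 56.2, 53.3, 55.3, 55.3 and 52.8 CPM at day 0, 76.9, 82.1, 76.9, 75.3 and 79.2 CPM at day 1, and 81.0, 74.8, 67.8, 71.7 and 76.9 CPM at day 12. Every library at 31°C was above every library at day 0, and the 2 groups at 31°C overlapped. The difference was 0.52 on the log2 scale at day 1 (SE 0.037, adjusted p = 2.29e-13) and 0.45 at day 12 (SE 0.037, adjusted p = 3.69e-12). Scaled to total counts, the day 12 value was 0.64 and called. Pex14, on which Pex5 docks, was at 54.3 ± 1.94, 79.8 ± 1.45 and 64.5 ± 2.58 CPM (log2 0.55 at day 1, SE 0.031, adjusted p = 1.13e-15). Of its exon bases, 28.3% lie opposite Gm17029, so part of its reads cannot be assigned with certainty. Its docking partner Pex13 was at 66.2 ± 1.67, 69.5 ± 2.74 and 60.4 ± 2.9 CPM. Pex7, the receptor of the N-terminal signal, was at 20.3 ± 0.429, 17.9 ± 0.558 and 22.1 ± 1.28 CPM.

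The recycling of Pex5 involves ubiquitin ligases, among them Pex2 and Pex10, and an ATPase complex that contains Pex6 and is anchored by Pex26. Pex6 (chr17:46711463-46725541, plus strand) fell most of all peroxins. It measured 66.9, 65.1, 71.0, 66.6 and 69.0 CPM at day 0, 24.8, 24.6, 25.8, 26.9 and 26.4 CPM at day 1, and 25.3, 23.1, 23.4, 24.8 and 24.0 CPM at day 12. All libraries at 31°C were far below those at day 0, and the day 1 and day 12 libraries overlapped. The fold change was 2.63 at day 1 (log2 -1.40, SE 0.036, adjusted p = 1.35e-23) and 2.81 at day 12 (log2 -1.49, SE 0.037, adjusted p = 9.9e-25). Its anchor Pex26 was at 10.6 ± 1.01, 9.36 ± 0.252 and 9.35 ± 0.707 CPM, with overlapping groups. Pex2 was at 32.8 ± 1.28, 44.6 ± 3.18 and 37.7 ± 2.66 CPM (log2 0.44 at day 1, SE 0.048, adjusted p = 4.43e-09), and Pex10 at 6.0 ± 0.782, 5.52 ± 0.415 and 4.58 ± 0.212 CPM. Pex11a, a protein of peroxisome elongation and division, was at 17.4 ± 0.428, 18.1 ± 0.728 and 12.6 ± 0.547 CPM (log2 -0.46 at day 12, SE 0.045, adjusted p = 1.74e-10).

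In sum over the 12 peroxins, the libraries ranged from 482 to 495 CPM at day 0, from 585 to 611 CPM at day 1 and from 488 to 514 CPM at day 12. The day 1 mean of this sum was above the day 0 mean under each scaling: 598 against 489 CPM as reported here, 577 against 465 CPM with total counts and 564 against 494 CPM with the reference genes.

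Among the membrane proteins, Abcd2, an ABC transporter of very-long-chain acyl-CoA, was lower after 1 day and lower again after 12 days. Abcd2 (chr15:91145871-91191799, minus strand) measured 48.1, 49.9, 47.9, 50 and 44.6 CPM at day 0, 30.3, 30.7, 30.4, 28.4 and 28.5 CPM at day 1, and 17.1, 17.1, 17.0, 16.1 and 17.5 CPM at day 12. The 3 groups were fully separate. It fell 1.62-fold at day 1 (log2 -0.70, SE 0.038, adjusted p = 3.66e-16) and 2.83-fold at day 12 (log2 -1.50, SE 0.039, adjusted p = 4.6e-24). Its relative Abcd3 (PMP70), which imports branched-chain and dicarboxylic acyl-CoA, had higher values at 31°C that stayed under the fold limit. Abcd3 measured 107, 103, 98.2, 104 and 102 CPM at day 0, 125, 140, 145, 136 and 138 CPM at day 1, and 124, 123, 121, 116 and 128 CPM at day 12. All libraries at 31°C lay above those at day 0 (log2 0.41, SE 0.033, adjusted p = 3.34e-12 at day 1, and log2 0.25, SE 0.033, adjusted p = 6.63e-08 at day 12).

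Pxmp2, a channel-forming membrane protein, measured 8.73, 8.54, 7.38, 9.17 and 8.19 CPM at day 0, 7.03, 6.19, 6.72, 6.05 and 6.31 CPM at day 1, and 4.65, 4.02, 4.13, 4.01 and 4.52 CPM at day 12. Its 3 groups were separate, with day 0 highest and day 12 lowest. Pxmp2 fell 1.96-fold at day 12 (log2 -0.97, SE 0.074, adjusted p = 6.47e-13), and the day 1 difference was -0.38 (SE 0.072, adjusted p = 3e-05). A gene on the opposite strand, Gm15788, overlaps 10.8% of its exon bases. Abcd4, related to Abcd2 in sequence and known to act in lysosomal cobalamin transport, was at 29.4 ± 1.27, 21.1 ± 0.743 and 20.4 ± 1.05 CPM, under the fold limit at day 1 (log2 -0.48, SE 0.042) and day 12 (log2 -0.53, SE 0.042). Pxmp4 was at 35.5 ± 1.41, 38.4 ± 1.96 and 33.4 ± 1.24 CPM. Slc27a2 averaged 0.0144, 0.0201 and 0.0192 CPM, below the floor in each group, so no fold change is given. No membrane protein was called higher at either time by edgeR or DESeq2. With an unadjusted p under 0.05, 2 of the 5 tested were higher and 3 lower at day 1, and 1 was higher and 4 lower at day 12. That threshold was passed by many genes of the whole table, with 36.2% in the upward and 37% in the downward direction at day 1. The day 12 shares were 39.7% upward and 37.8% downward.

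**Figure D3:**
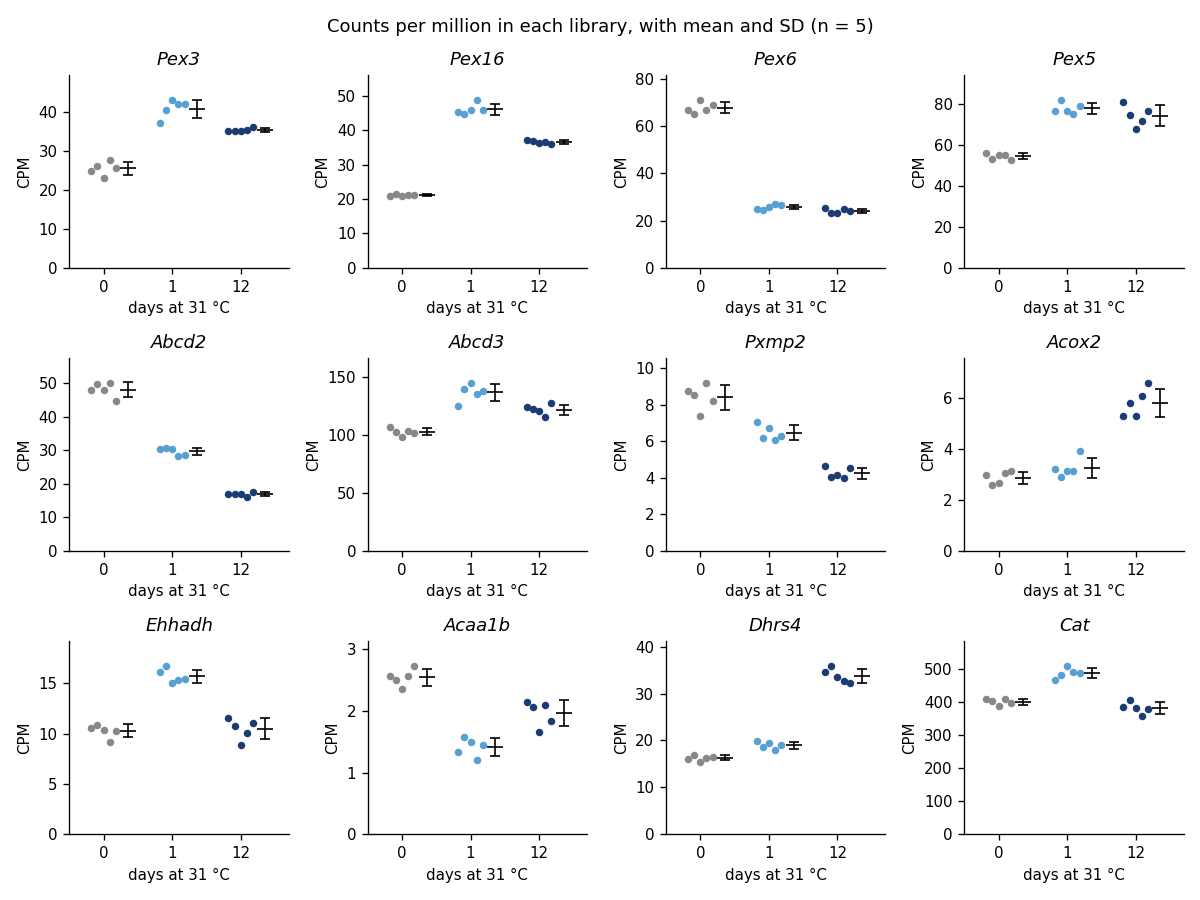
CPM of 12 genes in each library (points, vertical axis from 0) after 0, 1 and 12 days at 31°C (horizontal axis), with mean and SD of 5 libraries in black. Pex16 and Pex3 peak at day 1, Pex6 is low at both times at 31°C, Abcd2 and Pxmp2 are lowest at day 12, and Acox2 and Dhrs4 are high at day 12.

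The oxidases of the β-oxidation spiral act at its first step. Acox2, the oxidase of branched chains and bile acid intermediates (chr14:8225511-8259353, minus strand), measured 2.97, 2.58, 2.67, 3.06 and 3.13 CPM at day 0, 3.21, 2.92, 3.13, 3.15 and 3.91 CPM at day 1, and 5.29, 5.8, 5.29, 6.07 and 6.59 CPM at day 12. Day 0 and day 1 overlapped, and all day 12 libraries lay above both. Acox2 rose 2.01-fold at day 12 (log2 1.01, SE 0.094, adjusted p = 6.07e-11). At day 1 the log2 difference was 0.18 (SE 0.097, adjusted p = 0.092). Acox3, which oxidises pristanoyl-CoA, was at 47.0 ± 1.8, 40.8 ± 1.11 and 39.6 ± 1.18 CPM (log2 -0.25 at day 12, SE 0.034).

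The next steps are carried out by bifunctional enzymes, Ehhadh for straight chains and Hsd17b4 for very long and branched chains. Ehhadh measured 10.6, 10.9, 10.4, 9.17 and 10.3 CPM at day 0, 16.1, 16.7, 15.0, 15.3 and 15.4 CPM at day 1, and 11.6, 10.8, 8.89, 10.1 and 11.1 CPM at day 12. Day 1 stood alone above both other groups, which overlapped. It rose 1.53-fold at day 1 (log2 0.61, SE 0.062, adjusted p = 4.39e-10). This value lies close to the limit: it was 0.57 without day 0 replicate 4, 0.51 with the reference genes and 0.56 when genes under 10 CPM were left out, and was not called in those fits. Hsd17b4 was at 121 ± 3.66, 137 ± 2.37 and 144 ± 4.4 CPM (log2 0.24 at day 12, SE 0.027, adjusted p = 2.97e-09).

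Thiolases cleave the chain at the last step. Acaa1b measured 2.57, 2.5, 2.35, 2.57 and 2.72 CPM at day 0, 1.34, 1.57, 1.49, 1.2 and 1.45 CPM at day 1, and 2.15, 2.06, 1.65, 2.1 and 1.84 CPM at day 12. The groups were separate, with day 1 lowest. Acaa1b fell 1.8-fold at day 1 (log2 -0.85, SE 0.12, adjusted p = 2.35e-07), and the day 12 difference was -0.38 (SE 0.11, adjusted p = 0.00425). Its value is uncertain, since 30.5% of its 50-base stretches also occur in Acaa1a. In addition, 11.4% of its exon bases lie opposite Dlec1, which averaged 3.17 CPM at day 0, 0.448 CPM at day 1 and 0.507 CPM at day 12. How reads were assigned to a strand is not given in the sources used here, and the part of Dlec1 in this result was not tested. Acaa1a, the more abundant copy, was at 52.0 ± 3.26, 58.4 ± 2.5 and 50.1 ± 3.42 CPM.

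Scp2, which encodes a branched-chain thiolase and the sterol carrier protein, was at 459 ± 8.5, 369 ± 7.99 and 372 ± 10.5 CPM. All libraries at 31°C were below those at day 0, under the fold limit (log2 -0.31 at day 1, SE 0.025, adjusted p = 3.3e-12, and log2 -0.30 at day 12, SE 0.025, adjusted p = 5.65e-12). Scp2 shares 29.7% of its 50-base stretches with the pseudogene Scp2-ps2. Amacr, the racemase that prepares branched chains for oxidation, was at 14.1 ± 0.531, 11.4 ± 0.409 and 11.2 ± 0.363 CPM. Crot, which exports shortened chains as carnitine esters, was at 62.8 ± 2.11, 64.8 ± 1.19 and 60.6 ± 2.41 CPM with overlapping groups. The 9 β-oxidation genes together, of which Scp2 makes the largest part, summed to 753 to 784 CPM at day 0, 694 to 710 CPM at day 1 and 675 to 718 CPM at day 12. The day 1 sum was below day 0 under each scaling. The day 12 mean was below day 0 as reported here (696 against 772 CPM) and with the reference genes (730 against 779 CPM), but above it with total counts (757 against 735 CPM).

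The enzymes for unsaturated chains differed from day 0 in opposite directions, under the fold limit. Ech1, a dienoyl-CoA isomerase, was at 105 ± 3.48, 117 ± 4.18 and 140 ± 3.63 CPM (log2 0.42 at day 12, SE 0.029, adjusted p = 8.61e-14). Decr2, the peroxisomal dienoyl-CoA reductase, was at 34.6 ± 1.13, 23.8 ± 1.1 and 26.6 ± 0.418 CPM (log2 -0.54 at day 1, SE 0.037, adjusted p = 1.05e-13, and log2 -0.38 at day 12, SE 0.037, adjusted p = 1.79e-10). Ech1 was above day 0 and Decr2 below it in every library at 31°C. With total counts the day 12 value of Ech1 was 0.61 and called, and the day 1 value of Decr2 was -0.64 and called with the reference genes.

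Dhrs4, an NADPH-dependent reductase of carbonyls and retinal (chr14:55478758-55490340, plus strand), had the highest log2 fold change of the peroxisomal genes at day 12, beside Acox2. It measured 16.1, 17.0, 15.5, 16.3 and 16.4 CPM at day 0, 19.9, 18.6, 19.4, 18.0 and 19.0 CPM at day 1, and 34.7, 35.8, 33.6, 32.6 and 32.3 CPM at day 12. The groups did not overlap. The rise was 2.08-fold at day 12 (log2 1.05, SE 0.041, adjusted p = 7e-20), after a difference of 0.22 at day 1 (SE 0.042, adjusted p = 2.46e-05). The day 12 value of Acox2 (log2 1.01, SE 0.094) did not differ from that of Dhrs4 beyond its SE. Catalase (Cat), which was measured at 400 ± 9.58 CPM at day 0, reached 486 ± 15 CPM at day 1 and 381 ± 17.5 CPM at day 12. The day 12 mean of Cat was below day 0 here and above it with total counts (log2 0.12). All day 1 libraries of Cat lay above all others, under the fold limit (log2 0.28, SE 0.03, adjusted p = 1.09e-09). Phyh, the hydroxylase that starts α-oxidation of phytanic acid, was at 128 ± 3.32, 109 ± 1.59 and 107 ± 2.61 CPM (log2 -0.24 at day 1 and -0.27 at day 12, SE 0.026 for both).

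Ether lipid synthesis starts with Gnpat, which acylates dihydroxyacetone phosphate, and Agps, which exchanges the acyl chain for an alkyl chain supplied by the reductase Far1. Gnpat was at 88.7 ± 1.74, 99.7 ± 1.38 and 102 ± 2.48 CPM (log2 0.20 at day 12, SE 0.026, adjusted p = 6.64e-08). Agps was at 52.7 ± 1.21, 45.2 ± 2.95 and 57.3 ± 2.82 CPM (log2 -0.22 at day 1, SE 0.039, adjusted p = 1.23e-05). Far1 was at 96.1 ± 8.19, 90.5 ± 5.61 and 102 ± 2.88 CPM, and its groups overlapped day 0 at both times. None of these 3 genes was called by edgeR or DESeq2. At an unadjusted p under 0.05, which 36.2% of all tested genes passed upward and 37% downward at day 1, 1 was higher and 1 lower. At day 12, with shares of 39.7% upward and 37.8% downward, 2 of the 3 genes were higher. Their sum of 254 to 269 CPM at day 12 lay above the 229 to 247 CPM of day 0, and the day 12 mean was higher under each scaling (261 against 237 CPM, 284 against 226 CPM with total counts and 274 against 240 CPM with the reference genes).

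To compare levels between genes, CPM was divided by the length of the gene's merged exons. Per exon kilobase at day 0, Cat (153 ± 3.7 CPM per kilobase) and Scp2 (132 ± 2.4) were the most abundant, followed by Phyh (67.6 ± 1.8), Ech1 (46 ± 1.5), Hsd17b4 (35.5 ± 1.1) and Pex19 (29.4 ± 0.93). With the longest transcript as the length, Scp2 ranked above Cat, and the ranks of the next 5 genes were the same. Pex2 and Pex13 (14.4 ± 0.56 and 14.3 ± 0.36) did not differ beyond their spread, nor did Pex16, Far1, Acaa1a, Crot and Pxmp4, which lay between 11.4 and 11.9. Acaa1b (1.29 ± 0.068) and Acox2 (0.778 ± 0.065) were the lowest of the tested genes. At day 12, Pex6 had dropped from 17.8 ± 0.6 to 6.35 ± 0.25 CPM per kilobase, and Dhrs4 stood at 19.3 ± 0.84 against 9.29 ± 0.31. Over the 34 genes and 3 groups, the coefficient of variation among the 5 libraries had a median of 3.76% and a maximum of 13%.

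**Figure D4:**
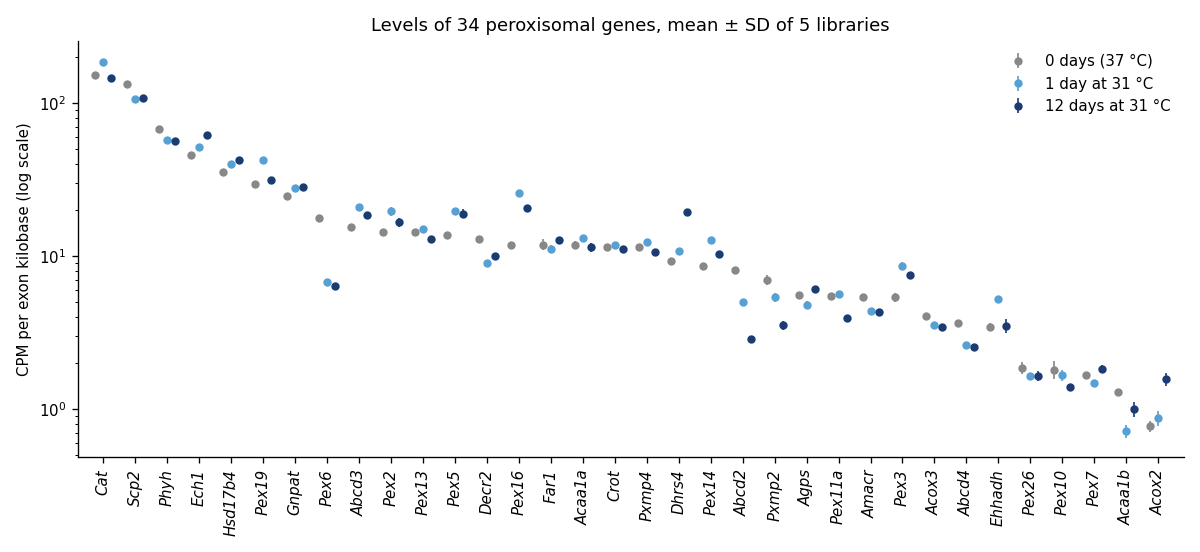
Level per exon kilobase (CPM per kilobase, vertical log axis) of 34 genes in order of their day 0 level (horizontal axis), as mean ± SD of 5 libraries per group. Cat and Scp2 lead in all groups, and Pex6, Abcd2, Pex16 and Dhrs4 move most from their place in the order.

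The 12-day and 1-day groups were compared directly to ask which effects differed between the times. Abcd2 (log2 -0.80, SE 0.04, adjusted p = 5.17e-17) and Pxmp2 (log2 -0.60, SE 0.076, adjusted p = 5.03e-08) were lower at day 12 than at day 1, and Acox2 (log2 0.83, SE 0.095, adjusted p = 6.84e-09) and Dhrs4 (log2 0.83, SE 0.041, adjusted p = 5.26e-17) were higher. These are 2 of 34 genes in each direction (5.88%), beside 10.6% of all genes called higher and 8.5% lower. The Pxmp2 value lies at the fold limit and was not called with total counts (-0.42), with the reference genes (-0.44) or in 5 of 15 fits that left out 1 library (those without day 1 replicates 1 or 3 or day 12 replicates 2, 3 or 4, down to -0.57). Without a fold limit, 26 of 34 genes (76.5%) passed, beside 67.1% of all genes.

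None of the 12 peroxins was called between day 12 and day 1 by edgeR or DESeq2, while at an unadjusted p under 0.05, 9 were lower and 1 higher at day 12. At that threshold 33.8% of all tested genes were lower and 35.5% higher, so the count is a description only. Among them, Pex16 (log2 -0.33, SE 0.032, adjusted p = 2.8e-10), Pex19 (log2 -0.44, SE 0.027, adjusted p = 8.75e-15) and Pex14 (log2 -0.31, SE 0.031, adjusted p = 7.73e-10) were below their day 1 level in every library. Pex7 was above it (log2 0.30, SE 0.043, adjusted p = 5.05e-07). The Ehhadh value of -0.58 (SE 0.062, adjusted p = 1.75e-09) was just inside the fold limit, and Cat was at -0.35 (SE 0.03, adjusted p = 1.15e-11). The median of the 34 genes was -0.08, beside 0.009 for all genes. Scaled to total counts or to the reference genes, the median of all genes in this comparison was 0.182 or 0.163, that of the peroxisomal genes 0.092 or 0.073, and the share of lower calls 27.3% or 29% in place of 44.5%.

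Genes around the pathway were counted from lists. Of all tested genes, 7.69% were called higher and 13.4% lower at day 1, and 12.9% and 16.2% at day 12. Between day 12 and day 1 the shares were 10.6% higher and 8.5% lower. Of 56 other peroxisomal genes tested, 5 were higher and 6 lower at day 1, 4 were higher and 6 lower at day 12, and 3 were higher and 4 lower at day 12 against day 1. Their median log2 fold change was 0.041 at day 1 and -0.022 at day 12, near that of all genes. At day 12 the long-chain acyl-CoA synthetase Acsl1 (log2 0.98), the thioesterase Acot4 (0.74) and Zadh2 (0.67) rose most, and inducible nitric oxide synthase Nos2 (-1.66), D-aspartate oxidase Ddo (-1.50) and the glutathione transferase Gstk1 (-1.01) fell most. Of 11 further genes of plasmalogen metabolism, 1 was lower at day 1, and 1 was higher (Gdpd1, log2 2.25) and 1 lower (Cept1, -0.94) at day 12. Against day 1, 1 was higher and 1 lower at day 12, and the medians were 0.068 at day 1 and -0.174 at day 12.

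Of 16 PPAR and retinoid X receptors and coregulators, 2 were lower at day 1 and 3 at day 12, namely Ppargc1a (log2 -1.50), Rxrg (-0.67) and Pparg (-0.59). None of the 16 was called higher at either time by edgeR or DESeq2. At an unadjusted p under 0.05, 2 were higher and 8 lower at day 1, and 1 was higher and 13 lower at day 12. At that threshold 36.2% of all tested genes were higher and 37% lower at day 1, and 39.7% and 37.8% at day 12. Between the times, 1 of the 16 was called higher and 1 lower at day 12, and the median of the list was -0.127 at day 1 and -0.257 at day 12. Of 22 PPAR target genes outside peroxisomes, 3 were higher and 4 lower at day 1, 5 were higher and 7 lower at day 12, and 2 were higher and 5 lower at day 12 against day 1, with medians of 0.224 at day 1 and 0.111 at day 12. Beside these list counts, 7.69% of all tested genes were called higher and 13.4% lower at day 1. The all-gene shares were 12.9% and 16.2% at day 12, and 10.6% and 8.5% between the times. Fabp4 (log2 0.97) and Cpt1a (0.91) were among those that rose at day 12, and Vnn1 (-2.34) and Cidec (-1.59) fell most.

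Of 21 genes of mitochondrial β-oxidation, 3 were higher and 1 lower at day 1, beside 7.69% and 13.4% of all tested genes. At day 12, when 12.9% of all tested genes were called higher and 16.2% lower, 4 of the 21 were higher and 1 lower. Cpt1a (log2 0.91), the carnitine acyltransferase that admits fatty acids to mitochondria, the thiolase Acaa2 (0.81) and Hsd17b10 (0.74) rose most, and Cpt1c (-0.74) fell. Their median log2 fold change was 0.145 at day 1 and 0.112 at day 12. Between day 12 and day 1 none was called by edgeR or DESeq2, and at an unadjusted p under 0.05, 9 were higher and 11 lower at day 12. At that threshold 35.5% of all tested genes were higher and 33.8% lower. Of 15 genes of peroxisome turnover, 1 was higher at day 1 and none was called at day 12 by edgeR or DESeq2. At an unadjusted p under 0.05, 7 of them were higher and 7 lower at day 12, beside 39.7% and 37.8% of all tested genes. Against day 1 none was called by either tool, and 4 were higher and 8 lower at that unadjusted p, beside 35.5% and 33.8% of all tested genes. The list's day 1 and day 12 medians were 0.02 and 0.096.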

How the data were processed

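In all, 15 RNA libraries of differentiated adipocytes were sequenced on an Illumina instrument. Per the labels and the study's methods, the authors aligned reads to mm10 with TopHat2 (2.0.13) and Bowtie2 (2.2.1) and deposited HTSeq counts per gene, the only values used here. The authors' regularised log table and their tables of DESeq2 fold changes and p-values were not used. Whether the counting used strand is not given in the sources used here.

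Counts were tested in R (4.3.3) with edgeR (4.0.16): filterByExpr with a minimum count of 10, TMM scaling, and the robust quasi-likelihood test in 1 fit of all 15 libraries with the group as the sole factor. P-values were adjusted by the Benjamini-Hochberg method over 14293 genes. CPM values use TMM-scaled library sizes, and SE is the size of the log2 fold change over the square root of F. On simulated counts for day 12 against day 0 with 14221 genes, the test recovered 100 of 100 genes changed by log2 1 and 96 of 100 changed by 0.7, with 6 false calls. Exon lengths and coordinates came from GENCODE vM21 (GRCm38), overlaps from its exons, and near-identical copies from 50-base stretches shared between transcripts. Counts of replicates of a group differed by more than sampling noise, so no library was counted as a duplicate.

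Genes with a value for every library were those called in any comparison, Pex5 and Abcd3. From other lists, at most 3 called genes per direction with the largest change at day 12 and a mean of at least 1 CPM were named. The 35 genes, the lists and the markers were chosen with earlier results of these data known. Alternatives were DESeq2 (1.42.0), other scalings and filters, no fold limit, replicate and library-number terms, and leaving out each library.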

Additional observations from a re-analysis of the deposited data

Results flagged for a closer look

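In 102 sets of 5 libraries (34 genes in 3 groups), 6 had a library whose gap to the nearest other was over 0.71 of the range of the set, and chance gives about 1 such set in 20. These were Pex3 at day 12 (36.3 CPM in replicate 5, the others 35.2 to 35.4 CPM), Pex13 at day 0 (63.2 CPM in replicate 3, the others 66.5 to 67.2 CPM) and at day 1 (64.8 CPM in replicate 1, the others 69.9 to 71.9 CPM), Pex14 at day 0 (57.8 CPM in replicate 1, the others 53.0 to 53.8 CPM), Pxmp4 at day 12 (35.6 CPM in replicate 2, the others 32.7 to 33.1 CPM) and Phyh at day 0 (134 CPM in replicate 1, the others 126 to 128 CPM).

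For 4 of 34 genes the effect of 12 days at 31°C differed from that of 1 day, tested as the direct comparison of both groups in the edgeR fit with a fold limit of 1.5, which 10.6% of all tested genes passed upward and 8.5% downward. Without the fold limit, 26 of 34 passed. On the log2 scale, the difference was -0.804 for Abcd2 and -0.596 for Pxmp2, which were lower at day 12 in 5 of 5 libraries than in any day 1 library, and 0.827 for Acox2 and 0.831 for Dhrs4, which were higher in 5 of 5. The Pxmp2 call was lost in 5 of 15 fits that left out 1 library, and when libraries were scaled to either total counts or the reference genes.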

How the results depend on the processing

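The number of called peroxisomal genes was 3 higher and 3 lower at day 1, 3 and 3 at day 12, and 2 and 2 between the times. Without a fold limit these became 15 and 13, 14 and 16, and 9 and 17. Scaled to the reference genes, 1 gene was higher and 4 lower at day 1. In that scaling 3 were higher and 1 lower at day 12 against day 1, beside 2150 and 880 of all tested genes. Scaled to total counts, 6 were higher and 3 lower at day 12, beside 2975 and 1668 of all tested genes. With total counts 3 were higher and 1 lower at day 12 against day 1, beside 2246 and 842. In both scalings the gene gained upward between the times was Acaa1b. When genes averaging under 10 CPM were removed, which leaves 29 of the 34, 1 was higher and 1 lower at day 12 against day 1. Leaving out each library in turn moved the last count, genes lower at day 12 against day 1, between 1 and 3. It was 1 when the omitted library was replicate 1 of day 1, or replicate 3 or 4 of day 12, and at 3 Ehhadh was added. The cause was not tested. Over all 102 log2 fold changes of the 34 genes, recomputed in 2433 values, 2297 kept direction and call, 11 lost the call, 84 gained it, mostly where the fold limit was dropped, and 41 changed sign. The sign changed in 20 of the 102, none of them called and none over 0.183 in size, with total counts in 15, with the reference genes in 13. The 60 log2 fold changes printed for single genes were limited, after the values were seen, to those that kept their sign. Deviations from the group mean were compared between libraries of different groups. Same-numbered libraries gave 15 correlations between -0.026 and 0.044 (median 0.019). Differently numbered ones gave 60 between -0.042 and 0.051 (median -0.002). Such small values cannot decide whether the numbers pair the samples, which the labels do not state. With the replicate block the counts were 3 higher and 3 lower at both times, and 2 higher and 3 lower between them, the gain being Ehhadh (log2 -0.586). The sample number series as a covariate left every count as it was, and its 11 larger-series libraries alone gave 3 in place of 2 genes lower between the times.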
